A study of Homo sapiens with 6 samples.

Results

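The intermediate-filament genes KRT7, KRT8, KRT10, KRT17, KRT18, KRT19, KRT80 and VIM were followed in RCC10, an established cell line of human clear cell renal carcinoma that lacks functional VHL. They were taken by gene symbol, as 8 of the 19009 rows of the deposited count table. The 6 libraries formed 3 groups of 2. HIF double-knockout cells (DKO) had received lentiviral guide RNAs against HIF-1alpha and HIF-2alpha and had been selected with puromycin. VHL-restored cells (VHL) had received a VHL lentivirus, and parental cells (WT) had received neither. All were grown in DMEM with serum. The labels name no group with a non-targeting guide or an empty vector, so effects of the virus or of selection cannot be told apart from those of the genes targeted. Whether the engineered cells were clones or pools, and which promoter drove VHL, was not stated in the labels. Since the labels name no separate cultures behind the libraries of a group, p-values below reflect no more than how far these libraries spread.

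Keratins and vimentin polymerize into the intermediate filaments that give epithelial and mesenchymal cells their mechanical strength. A keratin filament is built from pairs of an acidic type I chain and a basic type II chain, and a chain without a partner is degraded. KRT8 (type II) and KRT18 (type I) form the main pair of simple, single-layered epithelia such as the kidney tubule, and KRT7 (type II) and KRT19 (type I) join them in ducts. KRT10 and KRT17 are type I keratins best known from stratified skin, KRT10 in differentiated layers and KRT17 in appendages and wounded or stressed epithelium. KRT80 is a type II keratin found in many epithelia, often near cell contacts. Not all of the 7 keratins are therefore keratins of simple epithelia. Vimentin, a type III protein, forms filaments alone and is typical of mesenchymal cells, and clear cell renal carcinomas commonly hold both kinds of filament. In von Hippel-Lindau disease and most clear cell renal carcinomas, loss of VHL leaves the HIF alpha subunits stable, since VHL is the part of a ubiquitin ligase that recognizes them.

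By the reference annotation KRT7, KRT8, KRT18 and KRT80 lie on chromosome 12, KRT10, KRT17 and KRT19 on chromosome 17, and VIM on chromosome 10.

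Total counts ranged from 22248126 to 29929116 per library. Levels below are CPM, counts scaled to library size after TMM normalization, on which 3 counts equal 0.101 to 0.132 CPM in a single library. EPAS1, the gene of HIF-2alpha, averaged 46.2 ± 2.54 CPM in DKO cells, against 351 ± 2.21 CPM in parental cells, so the transcript was lower but present (SD, n = 2). HIF1A averaged 30.6 ± 1.42 CPM in DKO, 295 ± 12.6 CPM in VHL-restored and 71.2 ± 2.42 CPM in parental cells, and was 2.33-fold lower in DKO and 4.15-fold higher in VHL-restored than in parental cells (adjusted p = 1.09e-15 and 1.49e-22, edgeR). VHL averaged 687 ± 50.3 CPM in VHL-restored cells and 39.1 ± 0.461 CPM in parental cells. Of 6 HIF readout genes 4 were lower, 1 higher and 1 not called in each engineered group against parental cells. EGLN3, a HIF target that encodes a prolyl hydroxylase, averaged 0.358 ± 0.122 CPM in DKO, 0.197 ± 0.177 CPM in VHL-restored and 418 ± 0.478 CPM in parental cells. ADM, encoding adrenomedullin, was the higher one, at 309 ± 10.6 CPM in DKO, 309 ± 15.4 CPM in VHL-restored and 178 ± 2.43 CPM in parental cells, and CA9 had 1 count in all. PAX8, a transcription factor of the kidney lineage, was at 353 to 374 CPM in DKO, 399 to 416 CPM in VHL-restored and 297 to 305 CPM in parental libraries. SLC12A1 of the thick ascending limb had no count, and LRP2, a receptor of the proximal tubule, had 1 count over all 6 libraries. Of 19 renal tubule markers tested, 5 were higher and 9 lower in DKO cells, and 6 higher and 7 lower in VHL-restored cells, than in parental cells. Over all genes tested, 26.6% were higher and 27.5% lower in DKO cells, and 26.5% higher and 27.7% lower in VHL-restored cells. CDH16, a kidney cadherin, was 17.5-fold lower in DKO and 1.37-fold lower in VHL-restored cells, and CUBN, a receptor of the proximal tubule, 12.8-fold and 8.01-fold lower, than in parental cells (adjusted p at most 3.66e-05, edgeR). PAX2 was 9.31-fold higher in DKO cells (adjusted p = 5.38e-18, edgeR) and not called in VHL-restored cells (adjusted p = 0.052, edgeR). SLC12A3 was 3.81-fold lower in DKO and 4.03-fold higher in VHL-restored than in parental cells (adjusted p = 1.66e-07 and 6.59e-13, edgeR). In the bulk RNA measured here, fewer cells of a type and less RNA per cell cannot be told apart.

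All 8 members passed the minimum of 1 count in any library. In DKO against parental cells 4 members were higher, 1 lower and 3 not called, where edgeR's quasi-likelihood test called 54.1% of all 18273 genes tested at an adjusted p under 0.05. The share of members called was thus near that of all genes. In VHL-restored against parental cells 6 members were higher, 2 lower and none uncalled, with 54.2% of all genes called. The median log2 fold change of the members was 0.11 in DKO cells and 1.39 in VHL-restored cells, and that of all genes was 0.00 in both. In DKO against VHL-restored cells, which tests the difference between the engineered cells directly, 2 members were higher, 5 lower and 1 not called, with 56.0% of all genes called. The median there was -0.49 over the members and 0.00 over all genes. Both engineered groups are set against the same parental libraries, so their values are given side by side and their likeness is not counted as a result.

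**Figure D1:**
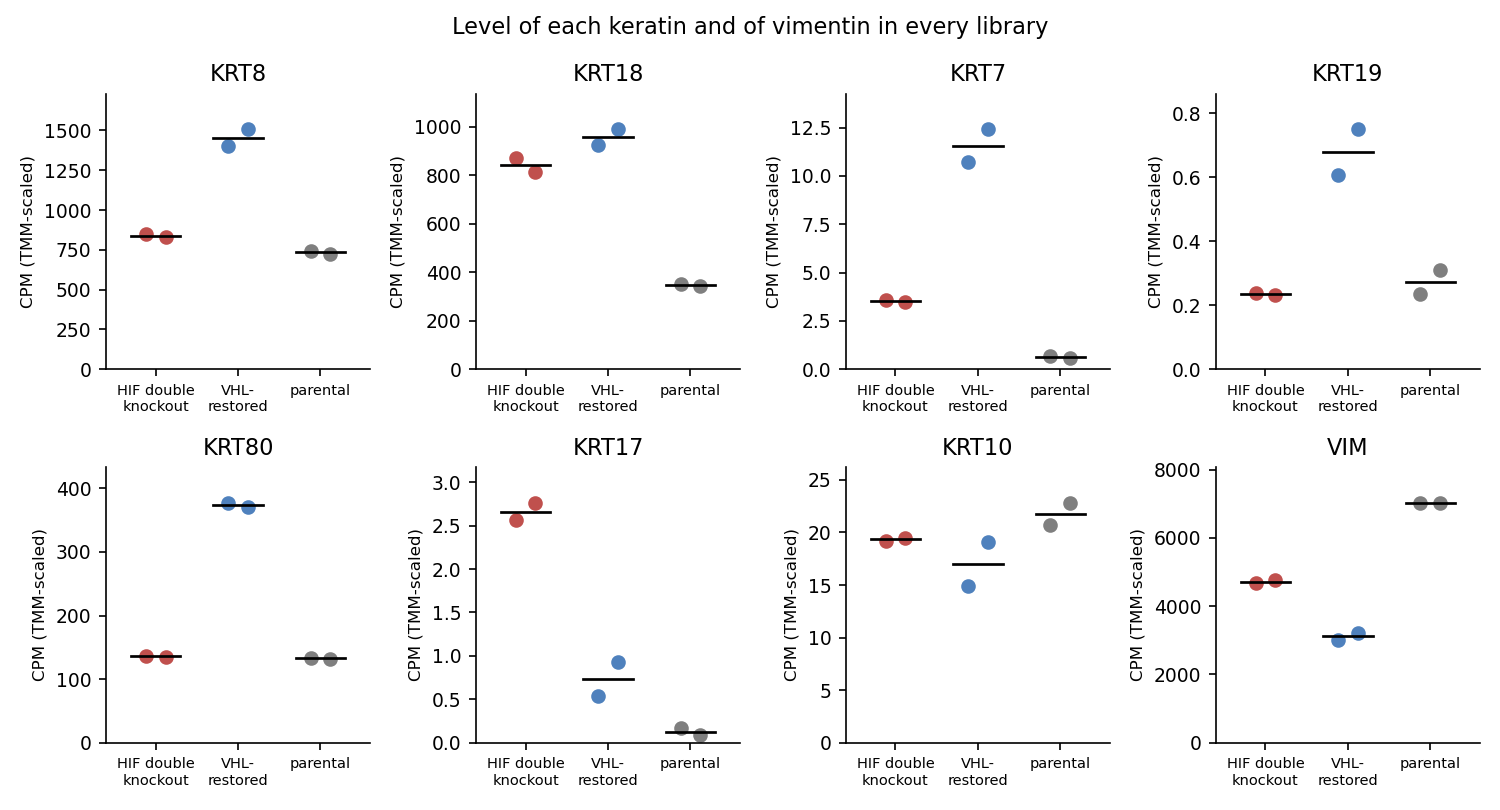
Level of each member in every library, in CPM on a linear axis from 0 with its own range for each gene, for DKO, VHL-restored and parental cells from left to right; each point is 1 library and each bar a group mean. VIM is highest in parental libraries (7020.2 and 7022 CPM), while KRT7, KRT8, KRT18 and KRT80 are highest in VHL-restored ones.

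KRT8 and KRT18, partners in the filament of simple epithelia, were both highest in VHL-restored cells, but did not move by the same amount. KRT18 was measured at 869 and 814 CPM in DKO, 922 and 988 CPM in VHL-restored, and 352 and 345 CPM in parental libraries. Both engineered groups lay far above the parental one, and no groups overlapped. KRT18 was 2.42-fold higher in DKO cells (log2 fold change 1.27 ± 0.06 SE, adjusted p = 9.92e-19, edgeR) and 2.74-fold higher in VHL-restored cells (1.45 ± 0.06, adjusted p = 3.77e-20, edgeR) than in parental cells. Between the engineered groups KRT18 differed little, by -0.18 ± 0.05 in DKO over VHL-restored cells (adjusted p = 0.00505, edgeR). That call was lost without DKO replicate 2 (adjusted p = 0.116, edgeR).

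KRT8 was at 847 and 831 CPM in DKO, 1402 and 1506 CPM in VHL-restored, and 741 and 727 CPM in parental libraries. The VHL-restored libraries stood apart, and the DKO libraries were just above the parental ones. KRT8 rose 1.98-fold in VHL-restored cells (log2 fold change 0.99 ± 0.05, adjusted p = 1.96e-16, edgeR). In DKO cells it was 1.14-fold higher than in parental cells (0.19 ± 0.05, adjusted p = 0.00242, edgeR), a call that was lost without parental replicate 2 (adjusted p = 0.077, edgeR). KRT8 was lower in DKO than in VHL-restored cells, by -0.79 ± 0.05 on the log2 scale (adjusted p = 3.55e-14, edgeR).

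The balance between the 2 partners differed in each group. KRT8 had 0.974 and 1.02 counts for each KRT18 count in DKO, 1.52 and 1.52 in VHL-restored, and 2.11 and 2.11 in parental libraries. The 3 groups did not overlap, and libraries of a group lay close together. On the log2 scale the ratio was lower than in parental cells by 1.08 in DKO and by 0.47 in VHL-restored cells. An exact two-sided permutation test of 2 libraries against 2 cannot go below p = 0.333, so no test is given for ratios. KRT8 and KRT18 together held 91.4% and 91.1% of the counts of the 7 keratins in DKO, 85.2% and 86.1% in VHL-restored, and 87.6% and 87.3% in parental libraries.

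**Figure D2:**
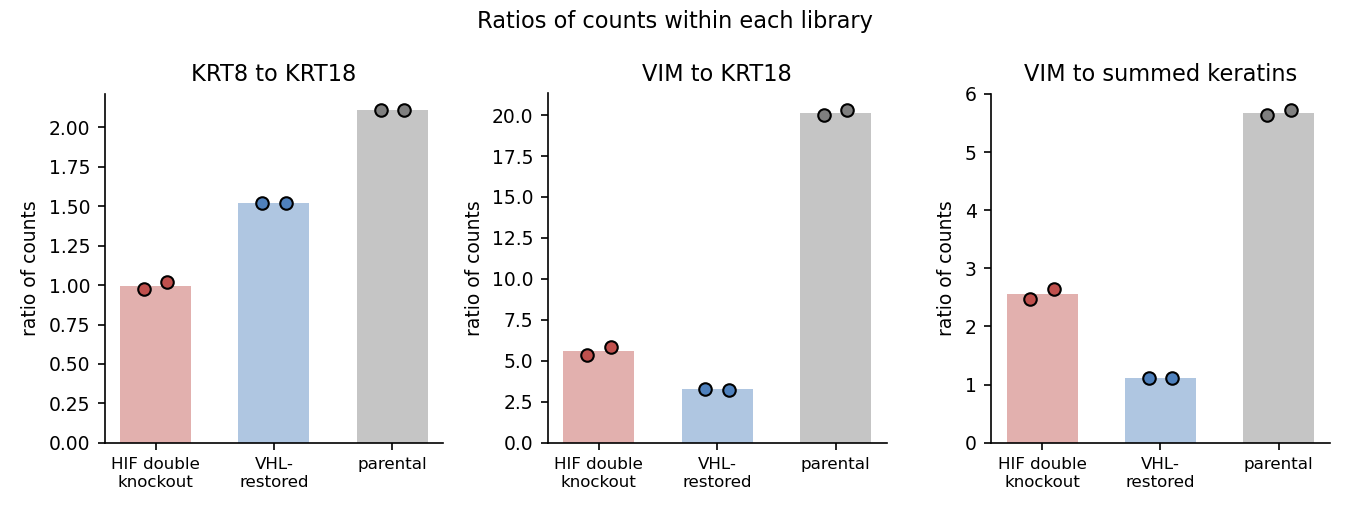
Ratios of counts within each library on linear axes from 0, with DKO left, VHL-restored in the middle and parental at the right; each point is 1 library and each bar a group mean. KRT8 to KRT18 is lowest in DKO (0.974 and 1.02) and highest in parental libraries (2.11 and 2.11), and VIM to the summed keratins is lowest in VHL-restored libraries (1.11 and 1.11).

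KRT7 and KRT19, the keratins of ducts and collecting ducts, were rare in RCC10. KRT7 was at 3.56 and 3.5 CPM in DKO, 10.7 and 12.4 CPM in VHL-restored, and 0.674 and 0.573 CPM in parental libraries. These levels rest on 90 to 104 counts per DKO library, 298 to 347 per VHL-restored library and 13 to 20 per parental library. The groups were separate, with a rise in both engineered groups. KRT7 was 5.57-fold higher in DKO cells (log2 fold change 2.48 ± 0.27, adjusted p = 7.56e-11, edgeR) and 18.2-fold higher in VHL-restored cells (4.18 ± 0.25, adjusted p = 1.13e-18, edgeR) than in parental cells. It was 3.27-fold lower in DKO than in VHL-restored cells (adjusted p = 6.93e-13, edgeR).

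KRT19 was at 0.239 and 0.233 CPM in DKO, 0.608 and 0.75 CPM in VHL-restored, and 0.236 and 0.309 CPM in parental libraries, or 6 to 21 counts per library. DKO and parental libraries overlapped, and VHL-restored libraries lay above both. KRT19 was 2.51-fold higher in VHL-restored than in parental cells (log2 fold change 1.33 ± 0.51, adjusted p = 0.0189, edgeR), which DESeq2 did not call (adjusted p = 0.141) and which was lost in edgeR without parental replicate 1 or VHL-restored replicate 2 (adjusted p = 0.114 and 0.125). In DKO over parental cells the log2 fold change was -0.18, with a 95% interval of -1.43 to 1.07 (adjusted p = 0.845, edgeR). These few counts are compatible with any change within that interval. KRT19 was 2.84-fold lower in DKO than in VHL-restored cells (adjusted p = 0.00854, edgeR), a call lost in DESeq2 (adjusted p = 0.089) and, in edgeR, without VHL-restored replicate 2 (adjusted p = 0.0733). KRT7 had 14.9 and 15 counts for each KRT19 count in DKO, 17.5 and 16.5 in VHL-restored, and 2.86 and 1.86 in parental libraries.

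KRT80 rose in VHL-restored cells and stayed near the parental level in DKO cells. Its level was 137 and 135 CPM in DKO, 377 and 370.1 CPM in VHL-restored, and 133 and 132 CPM in parental libraries. VHL-restored libraries were far above the others, while DKO libraries were just above parental ones. KRT80 rose 2.83-fold in VHL-restored cells (log2 fold change 1.5 ± 0.06, adjusted p = 4.12e-20, edgeR). In DKO cells its log2 fold change of 0.04 did not pass (95% interval -0.08 to 0.16, adjusted p = 0.622, edgeR). DKO cells had 2.75-fold less KRT80 than VHL-restored cells (-1.46 ± 0.06, adjusted p = 8.33e-20, edgeR).

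KRT17, a keratin of stressed epithelium, was highest in DKO cells, whereas KRT7, KRT8, KRT19 and KRT80 were highest in VHL-restored cells. It was at 2.56 and 2.76 CPM in DKO, 0.537 and 0.929 CPM in VHL-restored, and 0.168 and 0.0882 CPM in parental libraries. The parental values stand for 5 and 2 counts, against 75 and 71 in DKO libraries and 15 and 26 in VHL-restored libraries. No groups overlapped, although all levels were low. KRT17 was 19.3-fold higher in DKO cells (log2 fold change 4.27 ± 0.57, adjusted p = 2.79e-11, edgeR) and 5.34-fold higher in VHL-restored cells (2.42 ± 0.61, adjusted p = 0.000135, edgeR) than in parental cells. It was 3.61-fold higher in DKO than in VHL-restored cells (adjusted p = 2.53e-07, edgeR).

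KRT10, the keratin of differentiated epidermis, showed small differences. It was at 19.2 and 19.5 CPM in DKO, 14.9 and 19.1 CPM in VHL-restored, and 20.7 and 22.8 CPM in parental libraries. The VHL-restored libraries differed from each other more than the DKO group did from the parental one. KRT10 was 1.28-fold lower in VHL-restored than in parental cells (log2 fold change -0.35 ± 0.1, adjusted p = 0.00334, edgeR), a call that did not hold without either parental replicate or VHL-restored replicate 1 (adjusted p between 0.0507 and 0.171, edgeR). In DKO over parental cells it was -0.17 with a 95% interval of -0.37 to 0.04 (adjusted p = 0.166, edgeR). DKO over VHL-restored cells gave 0.19 (95% interval -0.02 to 0.39, adjusted p = 0.122, edgeR), which passed without VHL-restored replicate 2 (0.38, adjusted p = 0.00296, edgeR).

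Vimentin fell in both engineered groups, and more in VHL-restored cells. VIM was at 4665 and 4768 CPM in DKO, 3016 and 3210.5 CPM in VHL-restored, and 7022 and 7020.2 CPM in parental libraries. The groups did not overlap, and the parental libraries were nearly identical. VIM was 1.49-fold lower in DKO cells (log2 fold change -0.57 ± 0.05, adjusted p = 4.39e-12, edgeR) and 2.26-fold lower in VHL-restored cells (-1.17 ± 0.05, adjusted p = 1.28e-19, edgeR) than in parental cells. It was 1.52-fold higher in DKO than in VHL-restored cells (0.6 ± 0.05, adjusted p = 1.77e-12, edgeR). VIM remained abundant throughout, as the gene with the count rank 7 in DKO, 9 in VHL-restored and 3 in parental libraries. It took 0.456% and 0.471% of all counts in DKO, 0.302% and 0.323% in VHL-restored, and 0.708% and 0.715% in parental libraries.

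Set against the keratins, vimentin changed further than alone. The 7 keratins summed to 1878 and 1806 CPM in DKO, 2728 and 2898 CPM in VHL-restored, and 1247 and 1228 CPM in parental libraries. VIM had 2.48 and 2.64 counts for each count of these keratins in DKO, 1.11 and 1.11 in VHL-restored, and 5.63 and 5.72 in parental libraries. The 3 groups were apart for both quantities. Vimentin counts thus exceeded summed keratin counts in every library, by the least in VHL-restored cells. Relative to KRT18 alone, VIM was 3.6-fold lower in DKO and 6.18-fold lower in VHL-restored cells than in parental cells.

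**Figure D3:**
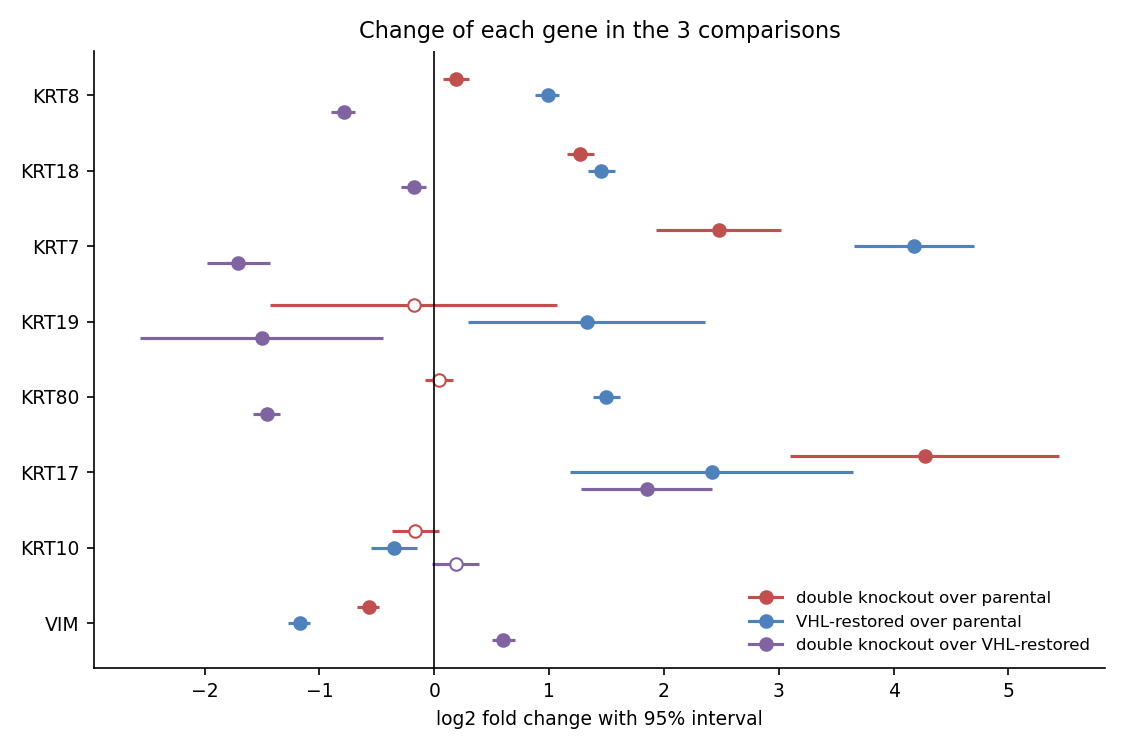
Log2 fold change of each member with its 95% interval in the 3 comparisons; filled symbols passed an adjusted p under 0.05 in edgeR and open symbols did not. KRT17 is the member most raised in DKO over parental cells (4.27) and KRT7 in VHL-restored over parental cells (4.18), while VIM is below 0 in both (-0.57 and -1.17).

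Per kilobase of transcript, which allows levels of different genes to be compared, the order was VIM, KRT18, KRT8, KRT80, KRT10, KRT7, KRT17 and KRT19 in DKO cells. In VHL-restored cells it was VIM, KRT8, KRT18, KRT80, KRT10, KRT7, KRT19 and KRT17, and in parental cells VIM, KRT8, KRT18, KRT80, KRT10, KRT7, KRT19 and KRT17. VIM led with 2525 CPM per kilobase in DKO, 1667 in VHL-restored and 3759 in parental cells. KRT80 was the fourth in every group, at 35.2 CPM per kilobase in DKO, 96.8 in VHL-restored and 34.3 in parental cells. In VHL-restored cells KRT10 (7.02 to 8.99 CPM per kilobase) and KRT7 (6.1 to 7.07) overlapped between libraries, as did KRT19 and KRT17. Other neighbours in these orders did not overlap. The place of KRT8 above KRT18 depended on the length used. With the union of exons in the basic set of the annotation, KRT18 was above KRT8 in every group. The values were 419 against 183 CPM per kilobase in DKO, 475 against 317 in VHL-restored and 173 against 160.2 in parental cells.

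Reads of some members cannot be assigned by sequence alone. Of all 50-base words in the transcript, 41.3% in KRT8, 47.6% in KRT18, 43.8% in VIM, 16% in KRT17 and 10.8% in KRT7 also occurred, on either strand, in transcripts annotated to other genes. The shares were 1.79% for KRT19, 0.434% for KRT10 and 0.42% for KRT80. For KRT8 the leading source was the pseudogene KRT8P3, for VIM the antisense transcript VIM-AS1 and for KRT7 the antisense transcript KRT7-AS. KRT18 shared 21.5% of its words with transcripts annotated to KRT8, its neighbour. In the smaller, basic set of the annotation, exons of KRT8 overlap those of KRT18 over 135 bases. The words were sought in all annotated transcripts, so that overlap does not account for all the sharing. No source at hand states how the counting treated strand and shared reads, so the levels of KRT8, KRT18, KRT17, KRT7 and VIM are uncertain to that extent. The deposited counts hold no row under the symbols VIM-AS1 or KRT7-AS, so their part in the levels of VIM and KRT7 could not be checked.

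The other keratins of the table were examined as a group. Of 33 rows 29 had a count and were tested. Relative to parental cells 9 were higher, 3 lower and 17 not called in DKO cells, and 8 higher, 3 lower and 18 not called in VHL-restored cells. In DKO over VHL-restored cells 10 were higher and 4 lower. Of all genes, 26.6% were higher and 27.5% lower in DKO cells, 26.5% higher and 27.7% lower in VHL-restored cells, and 28.0% lay on each side between the engineered groups. The median log2 fold change of these keratins was 1.20 in DKO and 0.67 in VHL-restored cells, many of them with very few counts. The minimum of 1 count in any library also lets in keratins seen in a single group, such as KRT73, with counts in DKO libraries only. These numbers of calls and medians are therefore not read as a trait of the other keratins.

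Keratin genes lie in a type II cluster on chromosome 12, which also holds KRT18, and a type I cluster on chromosome 17. Counting the members, 19 keratins of chromosome 12 were in the table and 18 were tested. In edgeR 10 of these were higher and 0 lower in DKO than in parental cells, and 9 higher and 0 lower in VHL-restored cells. At an unadjusted p under 0.05 edgeR had 0 lower in either comparison, and DESeq2 and limma-voom also called 0 lower, with 8 and 10 higher in DKO and 9 and 9 in VHL-restored cells. Of these 18 genes, 6 had no count and 5 had 1 to 4 counts over both parental libraries, so they had little or no room to be called lower, and the absence of lower calls says nothing about them. The 6 passed the minimum count only through an engineered group, so against parental cells only a higher call was possible, as for KRT73 in DKO cells. The numbers of higher calls are therefore not read as a trait of the cluster. Of 18 keratins tested on chromosome 17, edgeR called 3 higher and 3 lower in DKO and 5 higher and 4 lower in VHL-restored cells. Over all genes edgeR called 26.6% higher and 27.5% lower in DKO, and 26.5% and 27.7% in VHL-restored cells. DESeq2 called 3 higher and 4 lower in DKO and 4 higher and 4 lower in VHL-restored cells, and limma-voom 5 higher and 4 lower in DKO and 5 higher and 6 lower in VHL-restored cells. Keratins of chromosome 17 with few or no parental counts, among them KRT9, KRT14 and KRT36 with none, carry the same limit. The difference between the clusters was not tested.

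Along chromosome 12, neighbours differed in which engineered group they favoured. Of the 18 tested, 6 were lower, 6 higher and 6 not called in DKO over VHL-restored cells in edgeR, while DESeq2 called 6 lower and 3 higher. Over all genes edgeR called 28.0% lower and 28.0% higher in this comparison. The lower ones were KRT80, KRT7, KRT86 and KRT81, which follow each other in this order at an end of the cluster, and KRT8 and KRT18, which lie at the other end. The higher ones were KRT73, KRT2, KRT3, KRT4, KRT79 and KRT78, which lie between them, with 27 counts for KRT73 and 24 for KRT3 over the DKO libraries. The 6 not called also lie between these ends, and a link of the calls to gene order was not tested. The calls of KRT73, KRT3 and KRT4 did not hold in DESeq2 (adjusted p = 0.28, 0.0524 and 0.305), which leaves KRT2, KRT79 and KRT78. For KRT4 the call was also lost in limma-voom (adjusted p = 0.0789), and in edgeR under upper-quartile scaling, median centring and a fit of only the groups compared (adjusted p = 0.0654, 0.061 and 0.0612) and without each library in turn other than DKO replicate 2 (adjusted p between 0.0668 and 0.348).

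**Figure D4:**
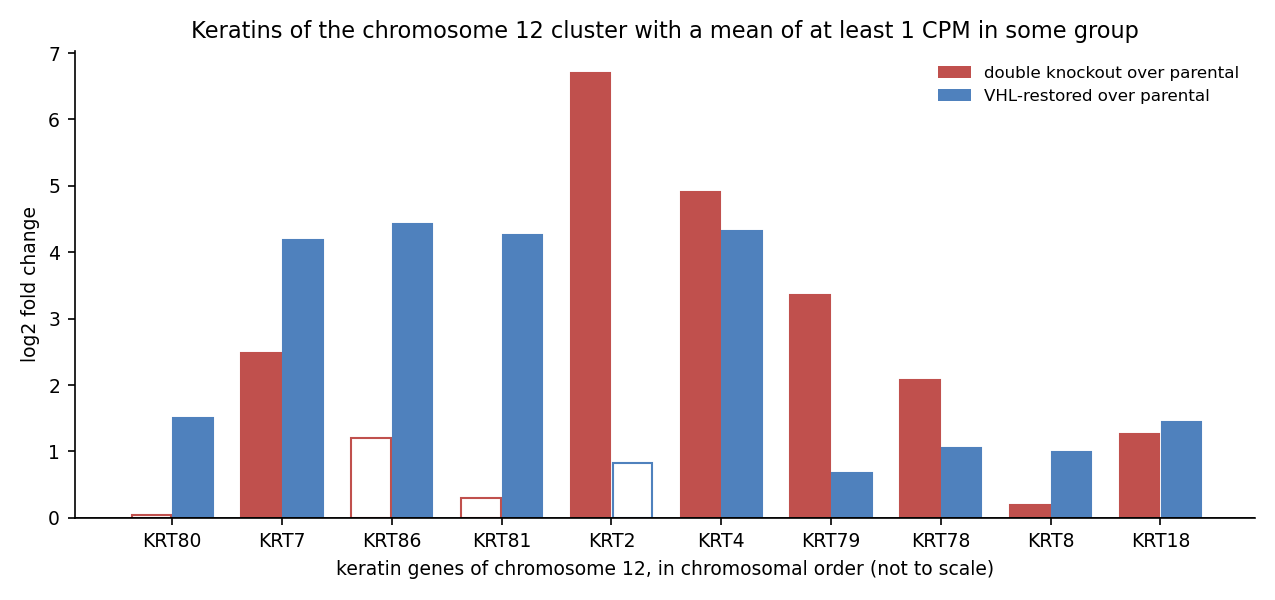
Log2 fold changes of keratins of the chromosome 12 cluster with a mean of at least 1 CPM in some group, in gene order but not to scale, for DKO over parental and VHL-restored over parental cells; open bars did not pass an adjusted p under 0.05 in edgeR. KRT2 and KRT4 had at most 3 counts in the parental libraries together, so their bar heights depend on the prior count of 0.125; KRT81 reaches 4.26 in VHL-restored over parental cells and KRT79 reaches 3.36 in DKO over parental cells.

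KRT81 and KRT86, type II keratins of hair, rose in VHL-restored cells. KRT81 was at 1.06 and 1.01 CPM in DKO, 16 and 16.3 CPM in VHL-restored, and 0.708 and 1.01 CPM in parental libraries. It was 19.1-fold higher in VHL-restored than in parental cells (adjusted p = 2.93e-20, edgeR), and did not pass in DKO cells (log2 fold change 0.30, adjusted p = 0.405, edgeR). KRT86 was at 0.103 and 0.272 CPM in DKO, 1.57 and 1.89 CPM in VHL-restored, and 0.0674 and 0.0882 CPM in parental libraries, a log2 fold change of 4.42 in VHL-restored over parental cells (adjusted p = 3.45e-09, edgeR). Their coding sequences are identical at 93.1% of 1451 aligned bases, so reads may be split between them. The pair is shown over 60 coding bases, positions 730 to 789 of the GENCODE 29 coding sequence counted from the start codon, 5′ to 3′, with capitals for the 3 bases that differ.
KRT81: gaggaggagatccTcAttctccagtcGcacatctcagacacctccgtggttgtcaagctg
KRT86: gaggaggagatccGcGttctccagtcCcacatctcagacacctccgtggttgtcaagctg
A read that covers a capital separates the genes, whereas a read that falls between differences could come from either.

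Among other keratins, KRT79, KRT34, KRT2 and KRT78 were highest in DKO cells. KRT79, a type II keratin of hair follicle ducts, was at 22 and 20 CPM in DKO, 3.22 and 3.29 CPM in VHL-restored, and 1.82 and 2.34 CPM in parental libraries. It was 10.2-fold higher in DKO than in parental cells (adjusted p = 8.23e-20, edgeR) and 6.45-fold higher than in VHL-restored cells (adjusted p = 2.18e-18, edgeR). The smaller rise in VHL-restored over parental cells (log2 fold change 0.67, adjusted p = 0.00217, edgeR) was lost without parental replicate 1 (adjusted p = 0.0946, edgeR). KRT34, a type I hair keratin, moved in opposite directions, with 4 and 4.58 CPM in DKO, 0.215 and 0.25 CPM in VHL-restored, and 0.876 and 0.926 CPM in parental libraries. KRT34 was 4.75-fold higher in DKO cells (adjusted p = 8.17e-11, edgeR) and 3.81-fold lower in VHL-restored cells (adjusted p = 8.92e-05, edgeR) than in parental cells. KRT2, an epidermal type II keratin, had 5.09 and 3.77 CPM in DKO, 0.0358 and 0.107 CPM in VHL-restored, and 0.0337 and 0.0441 CPM in parental libraries. With 1 count in each parental library, the ratio of DKO to parental cells was 117, with a 95% counting interval of 32.1 to 972. KRT4, a type II keratin of oesophageal epithelium, had 2.09 and 1.59 CPM in DKO, 1.29 and 1.18 CPM in VHL-restored, and 0.0337 and 0.0882 CPM in parental libraries, with ratios to parental cells of 32.4 (95% counting interval 10.8 to 159.5) and 21.5 (7.06 to 107). Both engineered groups thus lay above parental cells for KRT4. KRT78 rose by 2.08 on the log2 scale in DKO cells (adjusted p = 5.81e-08, edgeR) and, in VHL-restored cells, by 1.05 (adjusted p = 0.00444, edgeR), the second of which was lost without parental replicate 2 or VHL-restored replicate 1 (adjusted p = 0.07 and 0.0531, edgeR). KRT25, a type I keratin of the hair root sheath, fell in DKO and VHL-restored cells, to 0.205 and 0.0388 CPM in DKO and 0.0715 and 0.0715 CPM in VHL-restored libraries, against 1.04 and 1.32 CPM in parental libraries (adjusted p = 4.21e-06 and 7.22e-07, edgeR). KRT15, a type I keratin of basal cells, fell in DKO cells, by 0.62 on the log2 scale (adjusted p = 0.00021, edgeR), and rose by 0.67 in VHL-restored cells (adjusted p = 1.01e-05, edgeR).

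KRT16, a type I keratin related to KRT17 and also known from stressed epithelium, was at 1.47 and 1.17 CPM in DKO, 1 and 1.57 CPM in VHL-restored, and 0.573 and 0.353 CPM in parental libraries. It rose by 1.47 on the log2 scale in DKO cells (adjusted p = 0.000515, edgeR) and, in VHL-restored cells, by 1.42 (adjusted p = 0.000743, edgeR), the second of which was lost without parental replicate 2 (adjusted p = 0.0525, edgeR). KRT17 and KRT16 are identical at 78.9% of aligned coding bases.

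Other intermediate filament proteins, among them neurofilament subunits and nuclear lamins, went both ways. Of 11 tested, 3 were higher and 3 lower in DKO than in parental cells, and 4 higher and 2 lower in VHL-restored cells. Beside these stand 26.6% higher and 27.5% lower of all genes in DKO, and 26.5% and 27.7% in VHL-restored cells. NEFM, the medium neurofilament subunit, averaged 44.5 ± 1.06 CPM in DKO, 28.4 ± 0.41 CPM in VHL-restored and 16.3 ± 0.187 CPM in parental cells (SD, n = 2), with log2 fold changes over parental cells of 1.45 and 0.8 (adjusted p = 4.01e-16 and 1.02e-09, edgeR). INA, a neuronal filament protein, averaged 172 ± 3.16 CPM in DKO, 81.9 ± 2.79 CPM in VHL-restored and 86.9 ± 4.95 CPM in parental cells. It rose in DKO cells by 0.99 on the log2 scale (adjusted p = 1.47e-14, edgeR). LMNB2, a nuclear lamin, rose by 0.6 in VHL-restored cells (adjusted p = 4.2e-11, edgeR).

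Proteins that anchor keratin filaments to desmosomes, hemidesmosomes and the cell cortex moved in both directions. Of 23 tested, 8 were higher and 7 lower in DKO cells, and 11 higher and 5 lower in VHL-restored cells, than in parental cells. The shares of all genes were 26.6% higher and 27.5% lower in DKO, and 26.5% and 27.7% in VHL-restored cells. In DKO over VHL-restored cells 5 were higher and 9 lower, with 28.0% of all genes on each side. PPL encodes periplakin, a linker of the plakin family that binds keratins and vimentin. It averaged 1.69 ± 0.0795 CPM in DKO, 149 ± 5.03 CPM in VHL-restored and 63.7 ± 3.1 CPM in parental cells (SD, n = 2). PPL was 37.6-fold lower in DKO than in parental cells (adjusted p = 1.02e-26, edgeR), 2.33-fold higher in VHL-restored than in parental cells (adjusted p = 3.3e-16, edgeR), and 87.6-fold lower in DKO than in VHL-restored cells (adjusted p = 3.06e-29, edgeR).

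EVPL, encoding the related envoplakin, averaged 61.1 ± 1.44 CPM in DKO, 39 ± 2.96 CPM in VHL-restored and 9.98 ± 0.672 CPM in parental cells, and rose in both engineered groups (log2 fold changes 2.62 and 1.97, adjusted p = 1.3e-21 and 4.86e-18, edgeR). DSC2, the cadherin desmocollin-2, averaged 0.29 ± 0.0253 CPM in DKO, 1.16 ± 0.127 CPM in VHL-restored and 10.6 ± 1.29 CPM in parental cells. It was 36.2-fold lower in DKO and 9.16-fold lower in VHL-restored cells than in parental cells (adjusted p = 3.8e-19 and 7.26e-17, edgeR). ITGB4, the hemidesmosomal integrin subunit, averaged 0.813 ± 0.279 CPM in DKO, 6.97 ± 0.0457 CPM in VHL-restored and 7.22 ± 0.393 CPM in parental cells, and was 8.94-fold lower in DKO than in parental cells (adjusted p = 3.22e-15, edgeR). Beside these, CDH1, the epithelial cadherin, had no count in DKO libraries, and averaged 8.44 ± 0.107 CPM in VHL-restored and 3.55 ± 0.0309 CPM in parental cells. Against a floor of 3 counts over the group it was at least 65.1-fold lower in DKO than in parental cells (adjusted p = 3.68e-15, edgeR).

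Transcription and splicing regulators of epithelia were mixed, with 3 of 14 higher and 5 lower in DKO cells, and 4 higher and 4 lower in VHL-restored cells, than in parental cells. Among all genes the shares were 26.6% higher and 27.5% lower in DKO, and 26.5% and 27.7% in VHL-restored cells. ELF3, an epithelial ETS factor, averaged 6.26 ± 0.487 CPM in DKO, 73.2 ± 2.98 CPM in VHL-restored and 19.2 ± 1.4 CPM in parental cells (SD, n = 2). It was 3.08-fold lower in DKO cells (adjusted p = 1.85e-14, edgeR) and 3.81-fold higher in VHL-restored cells (adjusted p = 2.89e-19, edgeR) than in parental cells. FOXA2, a forkhead factor of endoderm-derived epithelia, had no count in either engineered group and 2.01 ± 0.0287 CPM in parental cells. FOXA2 was at least 36.8-fold lower in DKO and 37.4-fold lower in VHL-restored cells, against a floor of 3 counts over the group (adjusted p = 7.62e-11 and 7.71e-11, edgeR). KLF4, a factor of epithelial differentiation, averaged 8.69 ± 0.294 CPM in DKO, 7.79 ± 0.208 CPM in VHL-restored and 2.47 ± 0.817 CPM in parental cells, and rose in both engineered groups (adjusted p = 9.9e-12 and 1.12e-10, edgeR).

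Enzymes that modify filament proteins by phosphorylation, deimination or cross-linking included 4 of 17 that were higher and 7 lower in DKO cells, and 6 higher and 5 lower in VHL-restored cells, than in parental cells. For all genes these shares were 26.6% higher and 27.5% lower in DKO, and 26.5% and 27.7% in VHL-restored cells. PADI3, a peptidylarginine deiminase of hair follicle and epidermis, averaged 0.852 ± 0.0518 CPM in DKO, 7.95 ± 2.09 CPM in VHL-restored and 3.6 ± 0.913 CPM in parental cells. It fell in DKO cells by 2.1 on the log2 scale (adjusted p = 2.05e-08, edgeR) and rose by 1.12 in VHL-restored cells (adjusted p = 7.42e-07, edgeR). TGM2, a transglutaminase that cross-links proteins, averaged 539 ± 20.9 CPM in VHL-restored and 951 ± 22.4 CPM in parental cells, a fall by 0.82 on the log2 scale (adjusted p = 4.57e-14, edgeR).

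Markers of other cell types were low throughout. Summed over the list, fibroblast markers were at 6.19 to 6.37 CPM in DKO, 26.2 to 27.4 CPM in VHL-restored and 18.2 CPM in parental libraries, with 7 of 9 detected and COL3A1 at 0. Urothelium markers were at 1.2 to 1.33 CPM in DKO, 5.68 to 6.87 CPM in VHL-restored and 2.21 to 2.26 CPM in parental libraries, with 5 of 6 detected. Most of the VHL-restored sum was UPK3B, at 5.76 ± 0.813 CPM. Leukocyte markers were at 2.64 to 3.86 CPM in DKO, 1.75 to 2.04 CPM in VHL-restored and 1.01 to 1.38 CPM in parental libraries, with PTPRC and CD3E at 0. Endothelial markers were at 0.239 to 0.311 CPM in DKO, 1.75 to 1.86 CPM in VHL-restored and 0.539 to 0.617 CPM in parental libraries, with PECAM1 and KDR at 0. KRT20 stands both in the urothelium list and among the other keratins. Within the fibroblast list THY1 averaged 2.44 ± 0.169 CPM in DKO, 3.04 ± 0.15 CPM in VHL-restored and 0.746 ± 0.00594 CPM in parental cells. COL1A1 and PDGFRB of the same list were lowest in DKO cells. COL1A1 had 40 and 37 counts in DKO, 281 and 232 in VHL-restored, and 252 and 195 in parental libraries. PDGFRB had 70 and 58 counts in DKO, 398 and 401 in VHL-restored, and 263 and 197 in parental libraries. The part of these markers in the keratin and vimentin results was not tested.

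For each member the 2 genes with the most similar pattern over the 6 libraries were found among the other genes with a mean of at least 1 CPM, as the smallest root mean square distance between centred log2 CPM values. The closest match was MARS, methionyl-tRNA synthetase, to KRT18, at a distance of 0.027 on the log2 scale. MARS averaged 285 CPM in DKO, 318 CPM in VHL-restored and 119.9 CPM in parental cells. VIM was followed by PDIA4, a protein disulfide isomerase of the endoplasmic reticulum, and by SYAP1, both at 0.037. PDIA4 averaged 355 CPM in DKO, 238 CPM in VHL-restored and 544 CPM in parental cells. KRT8 lay nearest to SYMPK and SLC25A3, both at 0.037, and KRT80 to LTBP3 at 0.044 and TRIM38 at 0.056. KRT7 was followed by HAS3, a hyaluronan synthase, at 0.126 and GLIPR1 at 0.150, and KRT10 by UQCRB at 0.046. KRT17 lay furthest from its nearest genes, MFSD2A at 0.299 and BDNF at 0.334, and KRT19 was nearest to IL7R at 0.090. KRT17 had only 5 and 2 counts in the parental libraries, and the part of counting error in its distances was not tested. Ranking by Pearson correlation in place of distance kept 1 of these 16 genes, MARS for KRT18, so these neighbours depend on the measure.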

How the data were processed

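Messenger RNA from 6 RCC10 libraries, in 3 groups of 2, was represented by a single table of counts deposited by the authors, with whole-number values for 19009 gene symbols. Although the file was named as normalized, its columns hold integers with unequal totals and were taken as raw counts. Per the submitters' processing notes, HISAT2 2.2.1 and featureCounts 2.0.8 were used beside Trimmomatic 0.39, FastQC 0.74 and limma 3.58.1, and the builds hg38 and hg19 are both named. Build, strandedness and counting settings are otherwise not given in the sources, so no coordinates are printed.

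The 18273 genes that had 1 count or more in any library were fitted with edgeR 4.0.16 in R 4.3.3. The fit used TMM scaling, a prior count of 0.125 and 1 quasi-likelihood model of 3 group means over all 6 libraries. P-values were adjusted by Benjamini-Hochberg over all genes of a comparison, with a threshold of 0.05. The common dispersion was 0.00194, a coefficient of variation of 4.41%. Where a group had no count, folds are lower bounds against 3 counts over the group. Where a group had 1 to 3 counts, ratios carry 95% counting intervals. Intervals and floors from counts cover counting error only. Transcript lengths, shared 50-base words and coding sequences came from GENCODE 29. The fit was tested on simulated counts with known changes.

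Members and gene lists were chosen with earlier results of these data known. Members are given in full. From each other list, the genes named are those called with the largest changes per comparison, by a written rule that also takes the targeted genes. PAX8, LRP2, ADM, THY1, KRT3 and KRT73 were added after their values were seen. Alternatives were DESeq2 size factors, upper-quartile and median scaling, a low-count filter, DESeq2 1.42.0, limma-voom, fitting only the groups compared, a replicate block and leaving out each library. The second gene length, the union of annotated exons, was chosen after seeing the data. Some items are not reported here.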

Additional observations from a re-analysis of the deposited data

How the results depend on the processing

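Among the members, 190 of 192 values under other scalings, filters, tools and fits kept their direction and their side of the threshold, as did 134 of 144 values with a library left out. The 144 include values from comparisons that do not hold the library left out. Those could change only through the shared spread and scaling, so their agreement is no check of stability. All exceptions with a library left out fell in comparisons that held it. The exceptions under other tools were both KRT19 in DESeq2, at 1.33 in VHL-restored over parental cells (adjusted p = 0.141) and -1.52 in DKO over VHL-restored cells (adjusted p = 0.089). With each library left out, the log2 fold change of KRT8 in DKO over parental cells, whose call was lost once, ranged from 0.18 to 0.21. KRT19 passed in none of these fits of DKO over parental cells and ranged from -0.38 to 0.00, the last value without parental replicate 2. Other values that crossed the threshold ranged in VHL-restored over parental cells from -0.54 to -0.18 for KRT10 and from 1.13 to 1.52 for KRT19. In DKO over VHL-restored cells such values ranged from 0.02 to 0.38 for KRT10, from -0.23 to -0.13 for KRT18 and from -1.65 to -1.35 for KRT19. The cause was not tested. A group left with 1 library was assumed to vary like the others. Ratios with a library left out cannot move beyond the spread of 2 libraries, so they are no check of stability. Genes called numbered 7974 to 10134 in DKO over parental, 7891 to 9671 in VHL-restored over parental and 9019 to 9679 in DKO over VHL-restored cells with a library left out. With the replicate number as a block, 10112 genes were called in DKO over parental cells, against 9888 without it. The numbers were 10148 against 9898 in VHL-restored over parental cells, and 10458 against 10225 in DKO over VHL-restored cells. No member's call changed with the block. Deviations of same-numbered libraries correlated at 0.02 between DKO and VHL-restored, 0.13 between DKO and parental, and 0.00 between VHL-restored and parental cells. Same-numbered libraries thus shared little deviation, which does not show whether they were prepared together. With the union of exons as gene length, chosen after seeing the data, 20 of 24 ranks of the members by level per kilobase were the same, and KRT8 and KRT18 exchanged ranks 2 and 3 in VHL-restored and parental cells.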
